A study of Mus musculus and Macaca mulatta with 39 samples.

Results

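In cortex of rhesus macaque embryos, 2264 loci carried a called H3K27ac region in all 4 region lists of 12 weeks after conception (12 pcw) and in none of the 8 pcw list. They are called late loci here. They were chosen by the H3K27ac calls alone. Overlapping or touching regions of the 5 rhesus H3K27ac lists were merged into loci, and only chromosomes 1 to 4, 9 to 12, 16 and 18 were used. On these 10 chromosomes there were 64243 loci, of which the late loci made up 3.52%, and all chromosomes together had 120402. Their absence at 8 pcw is thus the rule and not a result, and it rests on 1 list. The H3K4me2 lists had no part in the choice.

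H3K27ac, an acetyl group on lysine 27 of histone H3, is placed by the acetyltransferases p300 and CBP and is found on promoters and enhancers in use. H3K4me2, a dimethyl mark on lysine 4 of the same histone, is found on promoters and enhancers whether or not they carry acetylation, and enhancers can gain H3K4 methylation before they gain acetylation. In the developing cortex, radial glia first divide to enlarge their pool and then give rise to neurons, and the set of acetylated enhancers shifts along the way.

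The late side comprised frontal cortex at 12 pcw and occipital cortex at 12 pcw, each with 2 biological replicates, and the early side embryonic cortex at 8 pcw, with no area named and 1 replicate. The labels name no genotype or treatment for any group, and all tissue came from timed pregnancies and was thawed and dissected before crosslinking. Each replicate had H3K27ac and H3K4me2 immunoprecipitates that shared an input. The tissue was bulk cortex, in which fewer cells of a type and less of a mark per cell cannot be told apart. The labels do not say whether frontal and occipital replicates came from the same animals, or whether animals were pooled. No gene annotation or genome sequence of rhesus was used, so loci are given by position, on a build that the labels and files do not name, and the tissue labels were not checked against marker genes.

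The deposited lists hold region positions without counts or scores, so read depth is unknown and list length stands in for it. On the 10 chromosomes, the H3K27ac lists held 30424 to 41634 regions over 63.2 to 97.4 Mb at 12 pcw, against 28401 regions over 50.8 Mb at 8 pcw, which was the shortest list. For H3K4me2 the order differed. The 8 pcw list was the longest, with 44793 regions over 96.1 Mb, whereas the 12 pcw lists covered 31.5 Mb (frontal replicate 1), 93.4 Mb (frontal replicate 2), 66.9 Mb (occipital replicate 1) and 52.8 Mb (occipital replicate 2). On 10 chromosomes outside the rule (5 to 8, 13 to 15, 17, 19 and 20), the H3K27ac lists of frontal replicate 2 and occipital replicate 1 ended 1.19 to 25.8 Mb before the other 3 lists. On the 10 chromosomes of the rule they did not.

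The late loci were 14.3% of the 15785 loci called in all 4 lists of 12 pcw. The other 13521 were also called at 8 pcw and are called constant loci here. Among loci called in exactly 4 of the 5 lists, the list that lacked the locus was the 8 pcw list for 2264, frontal replicate 2 for 1241, occipital replicate 2 for 1047, frontal replicate 1 for 422 and occipital replicate 1 for 275. The 8 pcw list was thus lacking most often, and the shortest 12 pcw list by length, frontal replicate 2, came next. A further 3739 loci were called in 3 of the 4 lists of 12 pcw and not at 8 pcw. In 622 late loci the list with the least coverage held at most 600 bp, close to the smallest region of 500 bp, and in 731 every 12 pcw list covered at least 1000 bp. The number chosen depended on the lists used, with 4036 loci without frontal replicate 2, 3494 without occipital replicate 2 and 1412 with the same number of widest regions from each list. On the other side of the rule, 574 constant loci (4.25%) were covered over at most 600 bp at 8 pcw.

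Late loci were narrower than constant loci in each list. Their merged width had a median of 2725 bp (quartiles 1725 and 4350 bp, range 750 to 47600 bp), against 3350 bp for constant loci (quartiles 2275 and 5950 bp), 2075 bp for the loci of 3 lists of 12 pcw and 1200 bp for all loci. The median covered length of a late locus was 1412.5 bp in frontal replicate 1, 1050 bp in frontal replicate 2, 1825 bp in occipital replicate 1 and 1375 bp in occipital replicate 2. Constant loci had medians of 2325, 2000, 2650 and 2250 bp in the same lists and 1925 bp at 8 pcw. Loci over 10 kb wide were 80 of the late loci (3.53%) and 1409 of the constant loci (10.4%). A single region made up 89.3% to 94.9% of the late loci in a 12 pcw list, so most were not broken up. These widths describe what the rule chose and were not tested.

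**Figure D1:**
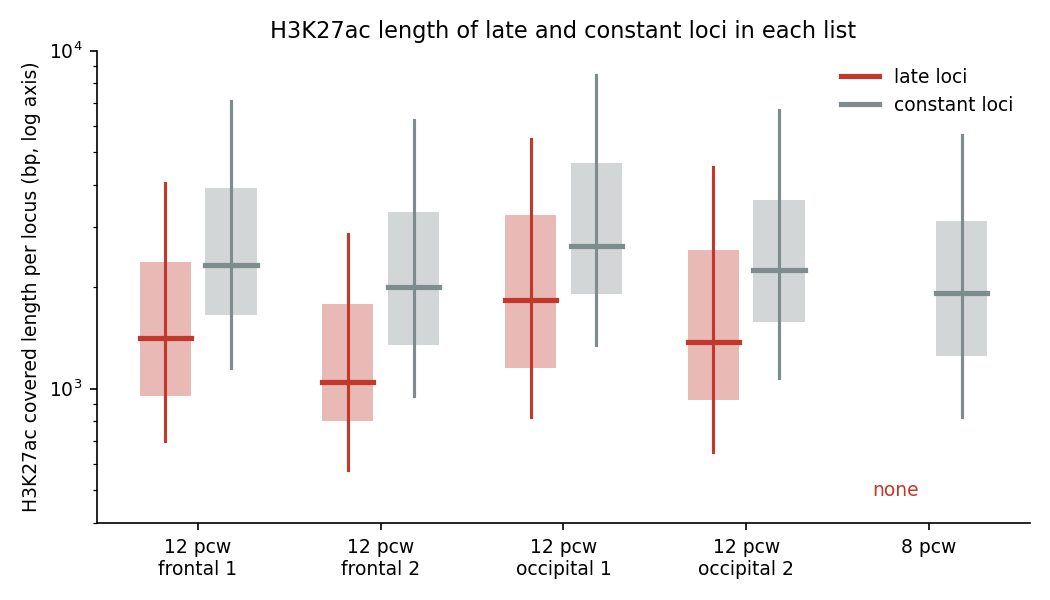
H3K27ac covered length per locus in bp on a log axis for late loci (red) and constant loci (grey) in each list. Lines across are medians, boxes quartiles and whiskers the 10th and 90th percentiles. The median of late loci lies below that of constant loci in every 12 pcw list, and the 1050 bp of frontal replicate 2 is the lowest.

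The longest late loci were domains whose length differed widely between lists. A locus on chromosome 18 from 52807526 to 52839175 was covered over 27825 and 10525 bp in frontal cortex and 29050 and 19375 bp in occipital cortex (replicates 1 and 2), a mean of 21694 ± 8599 bp (SD, n = 4). H3K4me2 regions covered 1675, 14775, 11050 and 4575 bp of it at 12 pcw in the same order, against 1450 bp at 8 pcw. All 4 lists of 12 pcw lay above the 8 pcw list for H3K4me2.

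The widest late locus, on chromosome 3 from 100572851 to 100620450, was covered over 32125 and 550 bp in frontal cortex and over 47600 and 1950 bp in occipital cortex. Replicate 1 of each area was long and replicate 2 short, so the 2 areas overlapped, and frontal replicate 2 only just met the rule. H3K4me2 covered 1050, 12000, 9850 and 800 bp at 12 pcw and 6200 bp at 8 pcw, with the 8 pcw list in the middle.

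A second locus on chromosome 18, from 66153376 to 66183275, had the same split of H3K27ac, with 21025 and 2575 bp in frontal cortex and 29900 and 3925 bp in occipital cortex. It lay 170350 bp from the nearest 8 pcw H3K27ac region. Its H3K4me2 covered 3300, 16775, 12525 and 3700 bp at 12 pcw and 2200 bp at 8 pcw, so that every 12 pcw list was longer.

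On chromosome 1 a locus from 87491201 to 87510650 held 12025 and 6875 bp of H3K27ac in frontal cortex and 19450 and 17600 bp in occipital cortex. Both occipital lists were longer than both frontal lists. The fifth by mean length, on chromosome 3 from 171050576 to 171068150, held 16050 and 4275 bp in frontal and 17575 and 16950 bp in occipital cortex, with frontal replicate 2 far below the other lists. H3K4me2 at 8 pcw covered 625 to 6200 bp in these 5 loci, whose widths were 17575 to 47600 bp.

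Some long late loci had no H3K4me2 at 8 pcw. The longest such locus, on chromosome 12 from 103355876 to 103374800, was more even across lists than those 5, with 16050 and 13000 bp of H3K27ac in frontal cortex and 12025 and 11800 bp in occipital cortex (13219 ± 1958 bp, SD, n = 4). Both frontal lists were longer than both occipital ones. Its H3K4me2 was listed at 0 bp in frontal replicate 1 and covered 4250 bp in frontal replicate 2, 3625 and 1125 bp in occipital cortex, and 0 bp at 8 pcw. The next loci without 8 pcw H3K4me2 lay on chromosome 12 from 62840901 to 62863575 (7925 and 1500 bp of H3K27ac in frontal, 14150 and 21125 bp in occipital cortex) and on chromosome 3 from 101776151 to 101792600 (9350 and 5575 bp in frontal, 11750 and 16400 bp in occipital cortex). In both of them the occipital lists were the longer ones.

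Late loci that H3K4me2 covered in full at 8 pcw were shorter, which the choice favours, since a narrow locus is more easily covered in full. The longest, on chromosome 9 from 74441051 to 74445900, had 4850 bp of H3K4me2 in each of the 4 lists of 12 pcw and in the 8 pcw list, while H3K27ac covered 3725 and 2400 bp in frontal and 4825 and 4450 bp in occipital cortex. On the same chromosome a locus from 27763551 to 27768150 likewise had 4600 bp of H3K4me2, its whole width, in all 5 lists. A locus on chromosome 16 from 78595476 to 78599200 had nearly equal H3K27ac in all lists of 12 pcw, with 3675 and 3625 bp in frontal and 3525 and 3375 bp in occipital cortex, and 3450 to 3725 bp of H3K4me2 in the 12 pcw lists against 3725 bp at 8 pcw. These loci were chosen for full H3K4me2 cover and no H3K27ac call at 8 pcw. What the choice left free was their H3K4me2 at 12 pcw, which was the same or nearly so.

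Late loci were found on all 10 chromosomes, and their share of the loci called in all 4 lists of 12 pcw ranged from 10.5% on chromosome 16 and 10.9% on chromosome 4 to 17.98% on chromosome 9 and 18.7% on chromosome 2. Chromosome 16 had the most constant loci per Mb (16.1) and chromosome 18 the fewest (7.19). For late loci the density ranged from 1.06 per Mb on chromosome 4 to 2.42 per Mb on chromosome 10. Counted in windows of 1 Mb, 536 of 1408 windows (38.1%) held no late locus, 534 held 1 or 2, and 135 held 5 or more. These 135 windows held 858 late loci (37.9%). The numbers of late and constant loci per window had a Spearman rho of 0.53 and a Pearson r of 0.46 (1408 windows, which share the same lists), given as a description. Of 121 windows without a constant locus, 20 held a late locus.

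The densest window, chosen after its values were seen, was chromosome 11 from 132000001 to 133000000, with 19 late and 28 constant loci. The late loci in it were 1100 to 7425 bp wide. H3K4me2 was called in 2, 10, 6 and 5 of the 19 in the lists of frontal replicates 1 and 2 and occipital replicates 1 and 2, and in 6 at 8 pcw. The next windows held 12 late loci each, on chromosomes 3, 9 and 10.

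Most late loci stood alone. The median distance to the nearest other late locus was 95275 bp (quartiles 26700 and 298975 bp). With gaps of at most 20 kb inside a cluster, 470 late loci (20.8%) formed 217 clusters, and 13.1% or 36.2% of late loci were in clusters with gaps of at most 10 or 50 kb. Of the 217 clusters, 190 were pairs, 20 had 3 loci and 7 had 4 or 5. Constant loci, 13521 in number, lay closer together, with a median of 17100 bp and 54.3% in clusters of at most 38 loci. Late loci were fewer, so these distances are not compared. The median cluster of late loci spanned 16625 bp and the longest 75325 bp. No 8 pcw H3K27ac region lay inside the span of 184 of the 217 clusters (84.8%), which held 397 late loci. By the rule only the gaps between late loci could hold such a region. The share expected for such short gaps was not computed, so the 84.8% is a description.

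The cluster with the longest span, on chromosome 11 from 132739651 to 132814975 in the densest window, had 5 late loci that 12 pcw regions covered over 16425 and 18375 bp in frontal cortex and 13550 and 21675 bp in occipital cortex. It was not bare at 8 pcw, since 5 H3K27ac regions of 7375 bp in all and 2 constant loci lay between the late loci. H3K4me2 was called at 8 pcw in 2 of the 5.

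A cluster of 5 on chromosome 9 from 57230826 to 57267725 had no 8 pcw H3K27ac region in its span of 36900 bp. Its late loci were covered over 13625 and 16650 bp in frontal and 10075 and 18500 bp in occipital cortex, with the 2 areas overlapping. H3K4me2 was called in 1, 5, 4 and 4 of the 5 late loci at 12 pcw, against 2 of 5 at 8 pcw, and the locus with H3K4me2 in all 5 lists (57266251 to 57267725) was the narrowest.

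The third cluster, on chromosome 18 from 1877801 to 1947475, had 4 late loci with 18475 and 7250 bp of H3K27ac in frontal cortex and 33625 and 31225 bp in occipital cortex, so that both occipital lists were longer. H3K4me2 was called in 2, 4, 4 and 3 of the 4 at 12 pcw and in 1 at 8 pcw. Over all 217 clusters, every late locus had H3K4me2 at 8 pcw in 79 and none had it in 44.

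**Figure D2:**
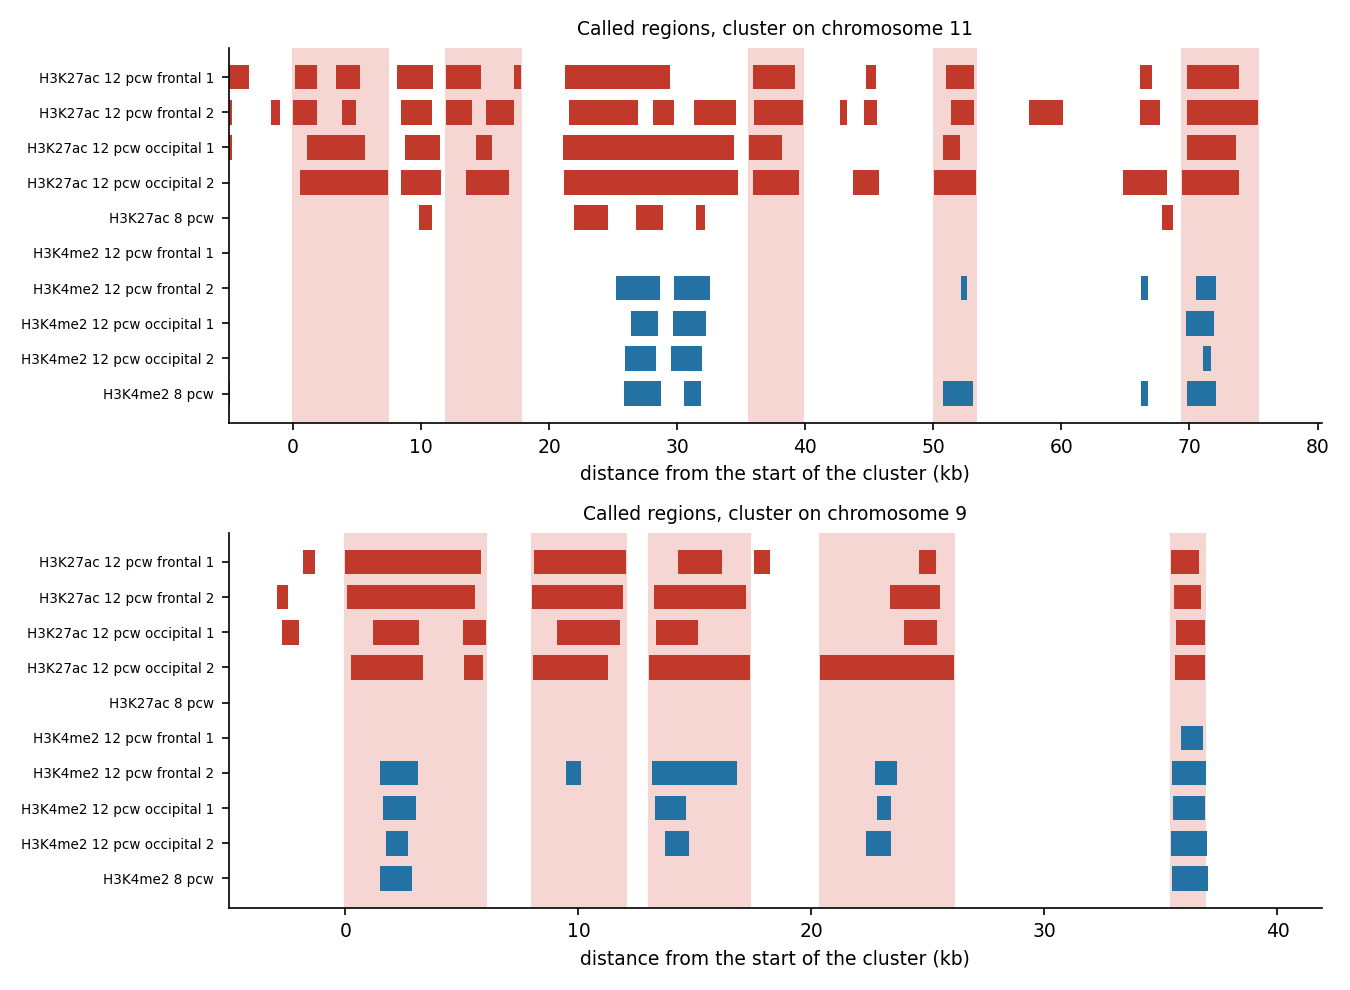
Called H3K27ac regions (red) and H3K4me2 regions (blue) in each list across the 2 clusters of 5 late loci, against the distance in kb from the start of the cluster. Shaded spans are the late loci. On chromosome 11 the 8 pcw H3K27ac regions lie between the shaded spans, and on chromosome 9 the 8 pcw H3K27ac row is empty while 2 of the 5 spans hold 8 pcw H3K4me2.

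Distances of late loci to chromatin acetylated at 8 pcw are descriptions, since no distance expected for other sites was computed. The median distance to the nearest 8 pcw H3K27ac region was 14537.5 bp (quartiles 6043.75 and 37118.8 bp), and 461 late loci (20.4%) lay within 5 kb of one. Regions of a single list were never closer than 1025 bp to each other, and 37 late loci were closer than that to an 8 pcw region. At the other end 161 late loci (7.11%) lay over 100 kb away. The farthest, chosen after its values were seen, lay on chromosome 1 from 218624451 to 218626150, 930825 bp from any 8 pcw H3K27ac region. It was covered over 500 and 500 bp of H3K27ac in frontal and 1550 and 950 bp in occipital cortex, and H3K4me2 already covered 1525 of its 1700 bp at 8 pcw. The loci of 3 lists of 12 pcw lay at a similar distance, with a median of 14825 bp and 886 (23.7%) within 5 kb.

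**Figure D3:**
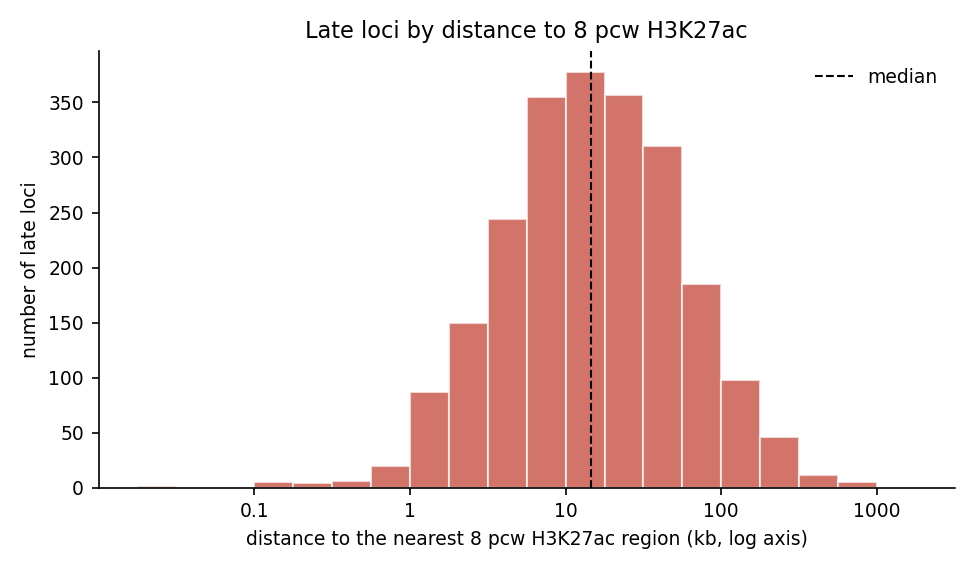
Number of late loci by distance in kb, on a log axis, to the nearest 8 pcw H3K27ac region. The dashed line is the median of 14537.5 bp, and most late loci lie between 1 and 100 kb.

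Most late loci already had H3K4me2 in the 8 pcw list. It had a region in 1505 of 2264 (66.5%), and covered at least 50% of the width in 933 (41.2%) and all of it in 425 (18.8%). At 12 pcw the share of late loci with H3K4me2 was 40.4% in frontal replicate 1, 86.2% in frontal replicate 2, 75.04% in occipital replicate 1 and 66.8% in occipital replicate 2, a mean of 67.1 ± 19.5% (SD, n = 4). The 8 pcw value lay inside this spread (exact two-sided permutation test, p = 0.8). With 4 lists against 1 the test has 5 splits and the smallest p is 0.2. It takes the lists as alike, but they cover 31.5 to 96.1 Mb, and the 8 pcw list is the longest. Late loci were also chosen to lack 8 pcw H3K27ac. The test therefore cannot show that the share was the same at both ages. Among constant loci the shares were 72.02%, 94.6%, 88.9% and 88.6% at 12 pcw and 97.2% at 8 pcw, so there the 8 pcw list had the highest share. Over all 64243 loci they were 22.0%, 49.6%, 39.9%, 33.9% and 49.0%. Loci called at 12 pcw in 3 lists and not at 8 pcw had H3K4me2 at 8 pcw in 48.5% of cases, below the late loci. They were below the late loci in every list of 12 pcw too, with 19.9%, 68.8%, 56.2% and 40.6%.

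Set against constant loci in the same list, late loci had less H3K4me2 at 8 pcw than in 3 of the 4 lists of 12 pcw. The share of late loci with H3K4me2 over the share of constant loci was 0.561, 0.911, 0.844 and 0.754 in the 12 pcw lists (0.768 ± 0.152, SD, n = 4) and 0.684 at 8 pcw. The rule itself favours a lower ratio at 8 pcw, because constant loci have 8 pcw H3K27ac by definition and late loci lack it, while both have it in every list of 12 pcw. The ratios, and all 8 pcw values of late loci set against constant or all loci, are therefore descriptions. The difference of 0.0839 had an exact two-sided permutation p of 0.8, and frontal replicate 1, the shortest list, lay lowest. The difference was 0.153 without that list, when the 8 pcw list was the lowest, and 0.0361 without frontal replicate 2. Frontal replicate 2 was closest in length to the 8 pcw list. At 93.4 Mb it had H3K4me2 in 86.2% of late loci, against 66.5% in the 8 pcw list at 96.1 Mb, while constant loci had 94.6% in frontal replicate 2 and 97.2% at 8 pcw. In bp, H3K4me2 covered 15.7%, 50.5%, 39.2% and 28.2% of the late loci at 12 pcw and 29.9% at 8 pcw, against 32.8%, 58.4%, 50.0% and 45.2% of constant loci at 12 pcw and 60.8% at 8 pcw.

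The gap was larger when the 15727 widest H3K4me2 regions of each list were used. Late loci then had H3K4me2 in 40.4%, 40.2%, 42.4% and 45.1% of cases at 12 pcw and in 23.2% at 8 pcw, whereas constant loci had 72.02%, 70.6%, 71.4% and 77.3% at 12 pcw and 74.5% at 8 pcw. All 4 lists of 12 pcw lay above the 8 pcw list for late loci, and the 8 pcw list lay among them for constant loci. The ratio of the shares was 0.561, 0.570, 0.594 and 0.583 at 12 pcw and 0.312 at 8 pcw, a difference of 0.265. The narrowest region kept was 500, 1975, 1550 and 1175 bp wide in the 12 pcw lists and 2000 bp at 8 pcw. Frontal replicate 2, with nearly the same limit as the 8 pcw list, had 40.2% of late loci with H3K4me2, against 23.2% at 8 pcw.

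**Figure D4:**
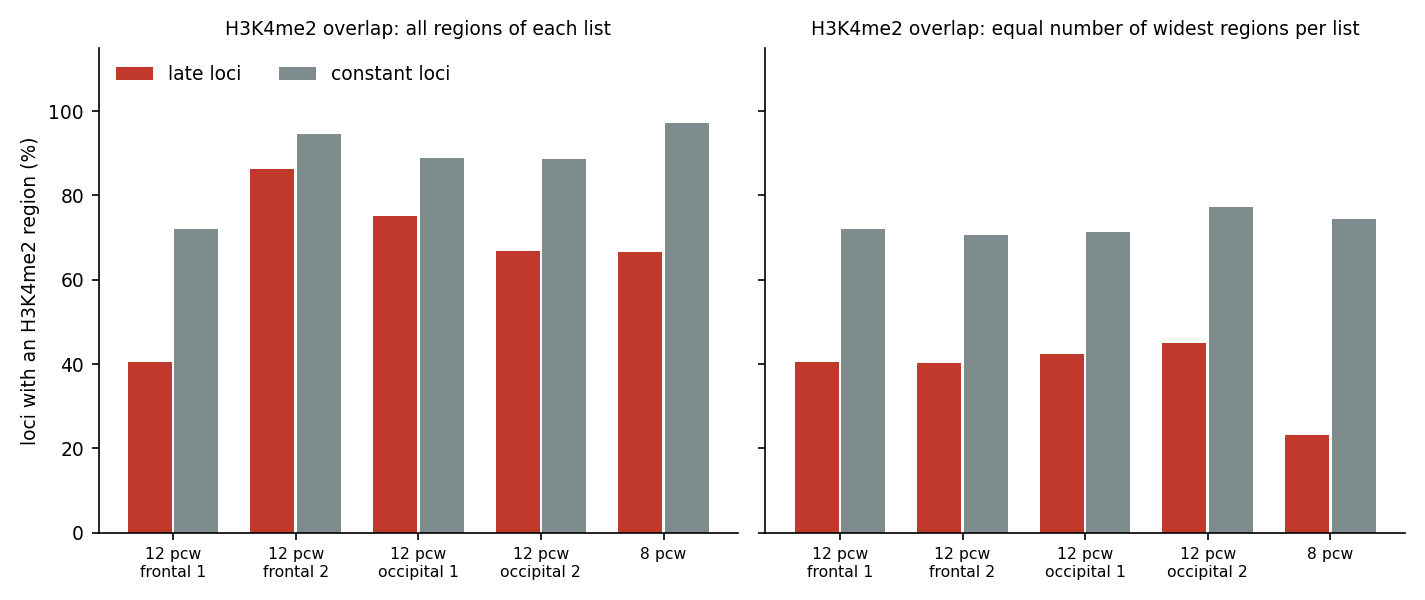
Percent of late loci (red) and constant loci (grey) with an H3K4me2 region in each list, with all regions (left) and with the 15727 widest regions of each list (right). On the right the late loci have 40.2% to 45.1% at 12 pcw and 23.2% at 8 pcw, while constant loci have 70.6% to 77.3% at 12 pcw and 74.5% at 8 pcw.

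Where the 8 pcw list did cover late loci, its regions were shorter than those on constant loci. The 1578 8 pcw H3K4me2 regions that touched late loci had a median width of 1600 bp, against 2825 bp for the 15298 on constant loci and 1475 bp for all 44793. The centre of 95.3% of them lay inside the late locus and 51.2% lay wholly inside. A late locus with any 8 pcw H3K4me2 was covered over a median of 1375 bp, or 68.8% of its width. For constant loci the median covered length was 2450 bp. The 12 pcw lists had the same order, with 1250, 1675, 1500 and 1337.5 bp in late loci against 2050, 2400, 2275 and 2150 bp.

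By the lists that called H3K4me2, 805 late loci (35.6%) had it in all 5, against 9575 constant loci (70.8%). H3K4me2 at 8 pcw with 2 or 3 lists of 12 pcw was found in 556 late loci (24.6%), with 1 list in 83 and with none in 61. In the other order, 55 late loci (2.43%) had H3K4me2 in all 4 lists of 12 pcw and not at 8 pcw, 185 (8.17%) in 3 and 190 (8.39%) in 2. With the short list of frontal replicate 1 left aside, 222 late loci (9.81%) had H3K4me2 in the other 3 lists of 12 pcw and not at 8 pcw, against 48 constant loci (0.355%). No list called H3K4me2 in 199 late loci (8.79%), against 184 constant loci (1.36%). The late loci with H3K4me2 in all 5 lists had a median width of 2050 bp and those with it in all 4 lists of 12 pcw and not at 8 pcw 4925 bp.

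Locus by locus, H3K4me2 covered more bp in every list of 12 pcw than at 8 pcw in 101 late loci (4.46%), where the share over all 65601 loci called in at least 2 H3K27ac lists was 1.05%. It covered fewer in every list of 12 pcw in 353 late loci (15.6%), where that share was 30.3%. For constant loci the shares were 0.888% and 34.5%. Without frontal replicate 1, 456 late loci (20.1%) were above the 8 pcw list in the other 3 and 355 (15.7%) below, where the shares over all loci were 6.7% and 30.4%. Among the 34777 such loci of the 10 chromosomes alone, a background chosen after seeing the data, the 4 shares were 1.07%, 30.8%, 6.51% and 30.8%. For late loci the share with longer H3K4me2 at 12 pcw was above that over all loci, and the share with shorter H3K4me2 below it, a difference given as counts without a test.

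A limma fit of H3K4me2 across loci made no call at single loci, with limits that leave its counts as descriptions. The 8 pcw side was 1 list and gave no spread of its own, so the fit took it to vary like the 12 pcw replicates. The filter, H3K4me2 in at least 2 lists, could be met by 12 pcw lists alone but not by the 8 pcw list alone. Of the 2264 late loci 1874 entered the fit, 430 of them through 12 pcw lists alone, and 61 with H3K4me2 in the 8 pcw list alone were among the 390 left out. Of 47806 loci, 0 were higher and 0 lower at 12 pcw at an adjusted p below 0.05 (0% in each direction), and 983 had an unadjusted p below 0.05. Among the late loci 0 were called and 47 had an unadjusted p below 0.05. Scaled by list total, the fit called 2 loci, 0 of them late. Without frontal replicate 1 it called 107 of 47684 loci higher (0.224%) and 2414 lower (5.06%), and of 1872 late loci 6 higher (0.321%) and 44 lower (2.35%). With loci lacking H3K4me2 kept in, it called 28 of 65601 loci higher (0.0427%) and 4957 lower (7.56%), and of 2264 late loci 4 higher (0.177%) and 61 lower (2.69%). The calls changed with the lists and the filter. Without frontal replicate 1, frontal cortex and 8 pcw had 1 list each, so all spread came from the 2 occipital lists. A locus with equal length in both occipital lists then had no spread of its own. The calls of that fit therefore do not measure a change and are not read as a result. Without the filter, the 61 late loci with H3K4me2 in the 8 pcw list alone entered the fit. Their covered length was 0 bp in every 12 pcw list, so the replicates gave them no spread. A low p at such loci does not measure a change.

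At 8 pcw H3K4me2 was called in a lower share of wide than of narrow late loci, a difference that was not tested. The share was 76.1% among the 410 late loci of up to 1500 bp, 72.8% among 613 of 1500 to 2500 bp, 59.8% among 805 of 2500 to 5000 bp and 61.0% among the 436 wider ones. In constant loci of the same classes it lay between 95.3% and 98.1%. At 12 pcw the lists differed in this respect. In the narrowest and the widest class the share of late loci was 83.9% and 92.7% in frontal replicate 2 and 71.95% and 87.2% in occipital replicate 1, but 55.6% and 35.6% in frontal replicate 1 and 71.7% and 67.4% in occipital replicate 2. In the widest class H3K4me2 covered 13.98% of the bp of late loci at 8 pcw, against 49.3% of constant loci.

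**Figure D5:**
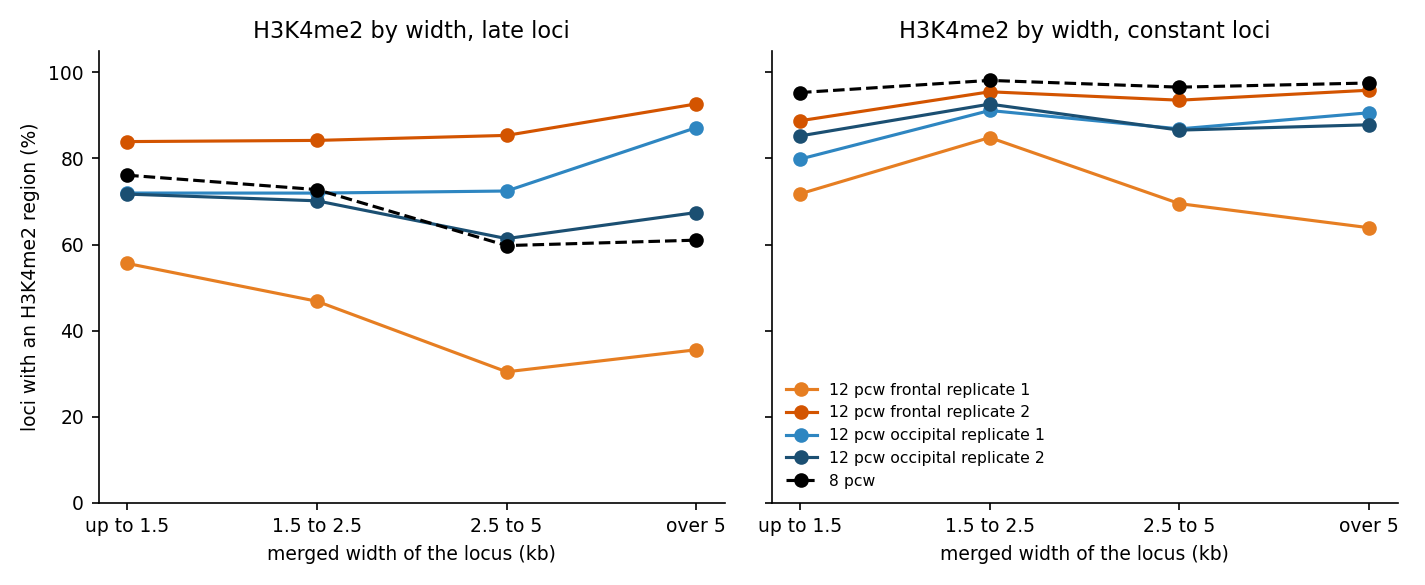
Percent of late loci (left) and constant loci (right) with an H3K4me2 region in each list, by merged width of the locus in kb. The 8 pcw list (dashed) has 76.1% in the narrowest and 61.0% in the widest late loci, and 95.3% to 98.1% in constant loci.

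Late loci within 5 kb of 8 pcw acetylation had the lowest H3K4me2 share in every list. At 8 pcw it was called in 59.9% of the late loci within 5 kb of an 8 pcw H3K27ac region, 64.7% of those 5 to 20 kb away, 71.0% of those 20 to 100 kb away and 73.3% of those farther away. The 12 pcw lists had the same order, with 27.3%, 73.5%, 58.4% and 52.1% in the nearest class and 50.3%, 95.03%, 88.2% and 79.5% in the farthest. The loci of 3 lists of 12 pcw also had their lowest share within 5 kb in every list. It was 12.3%, 54.1%, 38.9% and 28.8% at 12 pcw and 44.0% at 8 pcw. These shares are descriptions without a test. Late loci in clusters had H3K4me2 at 8 pcw in 57.2% of cases (470 loci, median width 3375 bp) and single ones in 68.9% (1794 loci, 2550 bp). By chromosome the 8 pcw share ran from 60.2% on chromosome 11 to 74.5% on chromosome 16.

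Late loci with H3K4me2 at 8 pcw were set beside those without it, as a description. Those with it were narrower in merged width (median 2500 against 3175 bp) and farther from 8 pcw acetylation (16200 against 12225 bp). Their median H3K27ac length was 1425 bp in frontal replicate 1, 1100 bp in frontal replicate 2, 1750 bp in occipital replicate 1 and 1300 bp in occipital replicate 2, against 1400, 975, 2050 and 1650 bp in those without. The frontal medians were higher and the occipital medians lower in late loci with 8 pcw H3K4me2. H3K4me2 at 12 pcw was called more often in them, in 55.8%, 94.6%, 84.7% and 83.4% against 9.88%, 69.6%, 56.0% and 33.9% in the same lists.

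No single late locus passed the test between frontal and occipital cortex. The rule treats the 4 lists of 12 pcw alike, but it uses the same H3K27ac calls and requires them in both areas. A locus called in frontal or in occipital cortex alone could not be a late locus, so small differences are favoured in advance. Counts of late loci beside all loci, which needed a call in only 2 lists, are therefore descriptions. In a limma fit of H3K27ac covered length over 65601 loci of all chromosomes, including those on which 2 lists ended early, 0 were higher and 0 lower in frontal cortex at an adjusted p below 0.05 (0% each), with 9284 at an unadjusted p below 0.05, and 0 of 2264 late loci were called, with 125 at an unadjusted p below 0.05. The smallest limma adjusted p of a late locus was 0.169, and 0.151 with the 10 chromosomes alone. The median log2 change, frontal minus occipital, was -0.23 over late loci, -0.16 over constant loci and -0.18 over all loci, and 0.01, 0.10 and 0.02 after division by the total of the list, so the sign turned with the scaling.

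In 259 late loci (11.4%) both frontal lists were longer than both occipital lists, and in 659 (29.1%) both were shorter. Among constant loci, which like late loci were called in every frontal and occipital list, the shares were 11.3% and 34%. The 29.1% of late loci thus lay below the share of constant loci, a difference that was not tested. Among the 34777 loci of the same 10 chromosomes, which needed a call in only 2 lists, the shares were 13.5% and 26.4%. Over all chromosomes they were 12.4% and 25.6%, which include stretches where frontal replicate 2 and occipital replicate 1 had ended and neither order could be met. Frontal replicate 2 was the shortest list in 1039 late loci (45.9%) and occipital replicate 1 the longest in 1009 (44.6%). Over the late loci, the bp shared by both lists over the bp in either was 0.542 for replicate 1 of frontal and occipital cortex, 0.511 for the 2 occipital replicates, 0.459 for the 2 frontal replicates and 0.340 for frontal replicate 2 with occipital replicate 1.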

How the data were processed

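Of 39 samples in the labels, 15 are rhesus, and the 10 region lists of their H3K27ac and H3K4me2 samples were used. The 5 rhesus inputs and all mouse samples were not used here. Each deposited list gives chromosome, start and end of called regions. The submitters' processing notes name Bowtie 0.12.9 and the builds hg19 and mm9, neither of them rhesus. The region caller, its threshold and the build of rhesus are named neither in the labels nor in the files used here. Starts lie on a 25 bp grid, and no region is under 500 bp. Positions are written 1-based.

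The late loci, the parts they are compared with and the tests were chosen with earlier results of these data known. A list calls a locus when at least 1 bp overlaps. For each locus the log2 of its covered bp plus 200 entered limma 3.58.1 in R 4.3.3 (lmFit, then eBayes with trend), with a mean per tissue over the 5 lists of a mark, loci of all chromosomes called in at least 2 H3K27ac lists, and Benjamini-Hochberg adjustment over all loci tested. The 12 pcw value is the mean of frontal and occipital cortex. For H3K4me2 the fit also required H3K4me2 in at least 2 lists. Alternatives changed the merging distance, region width, list length, overlap, pseudocount, filter, scaling and replicate block, and left out each 12 pcw list in turn. Shares per list were compared by exact permutation over lists. P-values measure the spread between these lists. The limma script was tested on simulated lists with normal noise of a single common spread. These lack the uncovered loci and unequal list lengths of the data, so the fit is not tested for those. The remaining steps ran in Python 3.11.15, with pandas 2.3.3 for tables, scipy 1.17.1 and numpy 2.4.6 for statistics, and matplotlib 3.10.9 for figures. Loci named singly are the 5 late loci with the longest mean covered length at 12 pcw, the 3 longest without and the 3 longest fully under 8 pcw H3K4me2, and the 3 largest clusters. Further ones are marked as chosen after their values were seen. The rule would also have named loci called by limma, and there were none.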

Additional observations from a re-analysis of the deposited data

Results flagged for a closer look

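Among 30 values tested for a single 12 pcw list far from the other 3, 1 was flagged, where chance flags about 1 in 20. At the late locus on chromosome 3 from 171050576 to 171068150, frontal replicate 2 held 4275 bp of H3K27ac, against 16050 bp in frontal replicate 1 and 17575 and 16950 bp in the occipital lists. Frontal replicate 2 was also the list with the shortest median length over all late loci.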

How the results depend on the processing

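The number of late loci was 1412 with an equal number of widest H3K27ac regions per list (28401), 1776 to 2284 under the other planned choices of region or distance, and 2697 to 4036 when 1 list of 12 pcw was left out (4036 without frontal replicate 2 and 3494 without occipital replicate 2). With regions of at least 1000 bp (1776 loci), shorter 8 pcw regions were dropped too, so loci with only a shorter 8 pcw region could be chosen. In the main set, 731 late loci had at least 1000 bp in every 12 pcw list. The median width was 3162.5 bp with regions of at least 1000 bp and 2050 to 2500 bp when a list was left out. The share in clusters was 17.4% without late loci within 5000 bp of an 8 pcw region, 15.6% with equal numbers of H3K27ac regions, 16.3% with regions of at least 1000 bp, 13.1% and 36.2% with gaps of 10000 and 50000 bp, and 23.1% to 30.2% when a list was left out.

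The share with 8 pcw H3K4me2 was 71.7% with equal numbers of H3K27ac regions, 86.7% with regions of at least 1000 bp, 41.2% at a coverage of at least 50%, 23.2% with equal numbers of H3K4me2 regions and 58.5% to 64.1% when an H3K27ac list was left out. The 86.7% is not a share of the same loci, since that choice also dropped 8 pcw H3K27ac regions under 1000 bp. Constant loci then numbered 9279, against 13521 in the main set. The share was 71.4% without late loci within 20000 bp of an 8 pcw region, a choice made after seeing the data. Constant loci had 75.2% at a coverage of at least 50%, 74.5% with equal numbers of H3K4me2 regions, and 95.7% to 99.4% beside the other sets of late loci. The ratio to constant loci had a higher mean at 12 pcw in every alternative run, by 0.0361 to 0.153 when a list was left out. The rule itself favours this direction, so the shared sign is a description.

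For H3K4me2 at 12 against 8 pcw, limma called 4985 of 65601 loci (7.6%), 65 of them late (2.87% of 2264), with no filter on H3K4me2, and 2 (0 late) with scaled length. It called 0 to 2521 (0 to 50 late) when a list was left out, the 2521 of 47684 (5.29%) and the 50 of 1872 late loci (2.67%) coming without frontal replicate 1. The cause was not tested. Leaving out a 12 pcw list left 1 list in its area, so all spread came from the 2 lists of the other area. Counts from these fits are therefore not read as changes. With no filter, loci with H3K4me2 in the 8 pcw list alone entered the fit without any spread between 12 pcw replicates. The replicate numbers were not taken as pairs, since nothing in the labels ties them. Deviations of same-numbered lists correlated at 0.271 for H3K27ac and -0.387 for H3K4me2, and the replicate block gave 0 calls in both contrasts, as did crossed numbers for H3K4me2 (0 late). Frontal against occipital cortex gave 0 calls in each alternative run. Loci of the 10 chromosomes alone, added after seeing the data, also gave 0 calls in both contrasts. Depth is unknown, so absence of a call cannot be told from a region under the threshold.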
